A study of Mus musculus with 3 samples.

Results

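The 9 cadherin genes *Cdh1*, *Cdh2*, *Cdh3*, *Cdh4*, *Cdh5*, *Cdh6*, *Cdh11*, *Cdh13* and *Cdh19* were followed across the cell types of the mouse limbus and iridocorneal angle. They were taken by name from the 31053 genes of the count matrices, and all 9 had UMIs in every library. Cadherins are calcium-dependent adhesion proteins: the classical members bind cadherins on the neighbouring cell and are tied to actin through β-catenin and α-catenin at the adherens junction. Which member a cell makes differs between tissues, with E-cadherin (*Cdh1*) typical of epithelia, N-cadherin (*Cdh2*) of neural and mesenchymal cells and the corneal endothelium, and VE-cadherin (*Cdh5*) of vessels. *Cdh13* encodes T-cadherin, which lacks a cytoplasmic tail and is held by a lipid anchor.

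Single cells came from 3 droplet libraries, 2 control and 1 *Angpt1*ΔNC, each made from pooled mice aged 6 weeks that the labels describe as of both sexes. The labels give the controls as *Angpt1* flox/flox, although their titles say wild type, so both groups carry the floxed allele. *Angpt1*ΔNC mice also carry *Wnt1*-Cre, which recombines in the neural crest lineage, and the line had been bred onto ICR mice to obtain albino litters of mixed strain. The comparison asks what differs in these eyes when neural crest cells lack *Angpt1*, the gene of a ligand for the endothelial receptor TEK. After the authors' filters, which removed doublets predicted by scDblFinder, 9076, 10160 and 6772 cells were kept in control 1, control 2 and *Angpt1*ΔNC, and values listed in threes follow this order. The kept cells held 76981606, 80346829 and 66484181 UMIs, with a median of 6329.5, 6393.5 and 7444 UMIs a cell.

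*Angpt1*, the targeted gene, had 2911, 3158 and 26 UMIs, and 17.2%, 17.3% and 0.340% of kept cells held at least 1. In the stroma labelled TM (trabecular meshwork and its surroundings) the share was 42.8%, 40.6% and 0.668%. The *Angpt1*ΔNC library thus held almost no *Angpt1* transcript in the cells that carried it in the controls. The pools also differed in sex: *Xist*, transcribed from the inactive X chromosome, had 3, 2 and 43346 UMIs. Against the labels, the control pools thus held next to no *Xist* transcript. Genotype and sex therefore cannot be told apart in comparisons of all cells, and with 1 *Angpt1*ΔNC library its spread between pools is unknown. Few kept barcodes were shared, 25 between the controls, 14 between control 1 and *Angpt1*ΔNC and 13 between control 2 and *Angpt1*ΔNC.

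The deposited table assigns 26008 cells to 35 labels, made by clustering these same cells, so differences between labels are descriptions without a test. *Cdh5* was used to define the endothelial cells and *Cdh2* was named as a marker of TM2, so their peaks there were built in. To get a level, the UMIs of a gene in each cell were divided by the cell's total, scaled to 10,000 and averaged over the cells of a label. Labels are ordered by the mean of the controls, and neighbours are called apart where both controls of the higher lie above both of the lower. Markers fitted the group names used: the 5 surface epithelium markers, led by *Krt14*, summed to 255, 233 and 214 in clusters 2 to 5. The 4 melanocyte markers summed to 383, 421 and 498 in clusters 8 and 9, which the study calls melanocytes. They are called pigmented here after their cell type; the litters were albino, and pigment was not measured. The 4 endothelium markers, led by *Egfl7*, summed to 47.0, 45.0 and 53.5 in the blood endothelium EC2 to EC4. Cluster 10, which the study calls astrocytes, is called by the wider term glia here. In clusters 19 to 21, the mural cells, 4 smooth muscle markers led by *Acta2* summed to 92.9, 88.0 and 45.6, and 4 pericyte markers led by *Rgs5* to 52.4, 54.9 and 72.2. Cluster 7, taken as ciliary epithelium, held its 4 markers, led by *Pcp4*, at 14.6, 13.9 and 12.9.

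Free RNA in droplets was gauged in the leukocyte clusters 22, 24 and 25, with 660, 873 and 564 cells and a median of 5973.5, 5873 and 5936 UMIs. There the share of cells with a UMI was 0.303%, 0.458% and 1.06% for *Cdh1*, 0.303%, 1.37% and 1.06% for *Cdh5*, and 0.758%, 0.458% and 1.24% for *Cdh11*. *Cdh13* had 0.152%, 0.115% and 0% of these cells, where 0 of 564 cells allows up to 0.532%. The other 5 genes lay between 0% and 0.355% in each library. Shares near these values are read as background. Cluster 23, which the study counts among the monocytes, was not used for this. Its *Cdh1* level had a control mean of 0.0316, beside 0.0432, 0.00494 and 0 in clusters 22, 24 and 25.

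**Figure D1:**
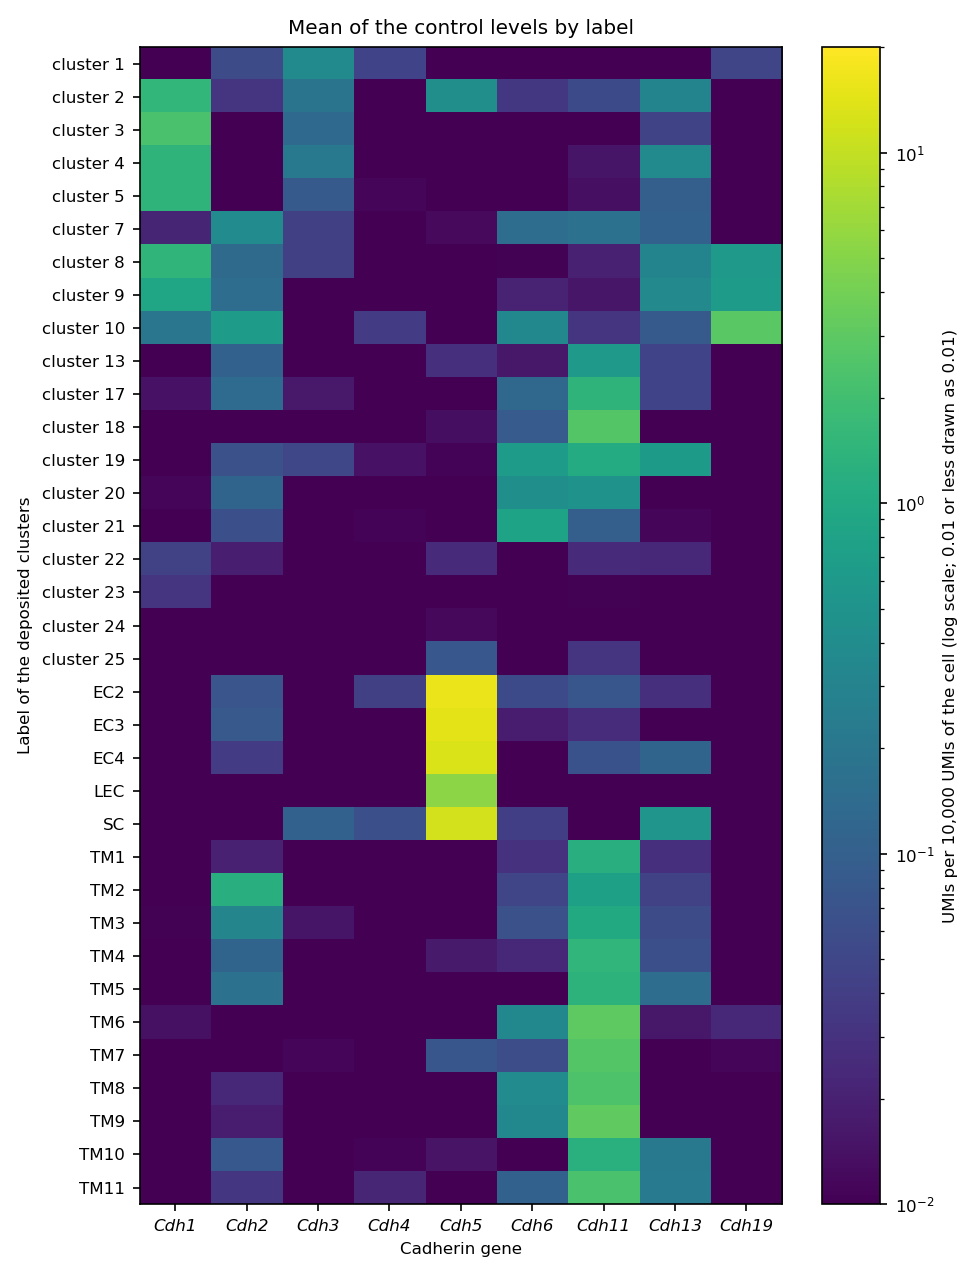
Mean of the 2 control levels of each cadherin gene (columns) in each of the 35 labels (lines), in UMIs per 10,000 on a logarithmic colour scale. *Cdh5* is bright in EC, SC (Schlemm's canal) and LEC (lymphatic) labels, *Cdh1* in clusters 2 to 5, 8 and 9, *Cdh11* across TM labels, and *Cdh19* in clusters 8 to 10.

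*Cdh1* and *Cdh3*, the genes of E-cadherin and P-cadherin, lie side by side on chromosome 8 of GRCm38, *Cdh3* (ENSMUSG00000061048) at 106510891 to 106557297 and *Cdh1* (ENSMUSG00000000303) at 106603351 to 106670246, both on the plus strand. *Cdh1* had 5107, 4826 and 5469 UMIs and was detected in 19.8% of all kept cells. It stood highest in cluster 3, a surface epithelium cluster, at 2.20, 2.26 and 2.78 UMIs per 10,000, apart from the next label. Cluster 2 followed at 1.63, 1.42 and 1.81. The pigmented cluster 8 stood beside the epithelia at 1.41, 1.51 and 0.760, and clusters 2, 8, 4 and 5 were not apart from one another as neighbours. Cluster 4 had 1.38, 1.44 and 1.72, and cluster 5 had 1.43, 1.38 and 1.69. Cluster 9, the other pigmented cluster, came next and apart at 0.887, 0.891 and 0.741, followed by glia at 0.114, 0.278 and 0.214. In the controls *Cdh1* was thus a gene of surface epithelium and pigmented cells alike.

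The share of cells with *Cdh1* in cluster 3 was 77.6%, 96.0% and 96.9% (95% Clopper-Pearson interval 68.0% to 85.4% in control 1), where the median cell had 21944, 16445 and 20683 UMIs. In cluster 8 it was 73.1%, 71.7% and 57.5%, with intervals of 69.9% to 76.0%, 68.4% to 74.9% and 52.7% to 62.1%, at median depths of 9907, 9262 and 11293. The *Angpt1*ΔNC interval lies below both control intervals. Cluster 9 had 35.4%, 37.3% and 33.6%, with overlapping intervals. These intervals cover counting error and not the spread between mice.

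*Cdh3* had 493, 420 and 612 UMIs and stood highest in cluster 1, whose 4 retinal pigment epithelium markers were led by *Ttr*, at 0.384, 0.386 and 0.270. Clusters 4, 2 and 3 came next, each apart from its neighbour. Cluster 4 had 0.20, 0.235 and 0.259, and cluster 3 had 0.133, 0.139 and 0.260. Schlemm's canal endothelium followed clusters 4, 2 and 3 at 0.102, 0.107 and 0.0425, on 8, 6 and 1 UMIs. Cluster 1 held next to no *Cdh1*, with 2, 1 and 1 UMIs, so the neighbouring genes parted there. The ratio of *Cdh1* to *Cdh3* UMIs was 0.0175, 0.0222 and 0.111 in cluster 1, 6.32, 6.01 and 7.15 in cluster 4, and 18.8, 20.6 and 10.6 in cluster 5. In cluster 4, 19.8%, 21.3% and 25.4% of cells held both genes, where the product of the single shares was 18.5%, 20.1% and 24.4%.

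*Cdh2* (ENSMUSG00000024304, chromosome 18, 16588877 to 16809246, minus strand), with 755, 1178 and 543 UMIs, peaked in TM2, the corneal endothelium of the study, at 1.03, 1.30 and 0.806. Glia were second at 0.718, 0.572 and 0.463, and next came the ciliary epithelium of cluster 7 at 0.364, 0.421 and 0.129. TM3 had 0.276, 0.367 and 0.210 and was not apart from cluster 7. In all 4 labels the *Angpt1*ΔNC value lay below both controls. From TM5, at 0.123, 0.222 and 0.198, down to TM7 no neighbours in the order were apart. The share of TM2 cells with *Cdh2* was 50.3%, 55.6% and 43.1%, at median depths of 7033, 7254.5 and 7536 UMIs.

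*Cdh11* (ENSMUSG00000031673, chromosome 8, 102632095 to 102785642, minus strand) encodes OB-cadherin, a type II cadherin of mesenchymal cells. With 4407, 5620 and 4633 UMIs in 29.5% of kept cells, it was detected in every TM label. TM9 had 2.84, 3.39 and 2.94 and was not apart from TM6, at 2.83, 3.29 and 2.05. The next 4, TM7, cluster 18, TM8 and TM11, formed a second step without gaps, with 2.56, 2.63 and 2.94 in TM7 and 2.23, 2.96 and 2.29 in cluster 18. TM4 stood apart below them at 1.52, 1.5 and 1.63. Its control mean reached 1 UMI per 10,000 in 13 labels. In TM7 the share of positive cells was 68.2%, 74.3% and 80.5%, at median depths of 5718, 6201 and 6722.5 UMIs, far above the leukocyte share. Schlemm's canal held 0, 1 and 1 *Cdh11* UMIs in 46, 63 and 15 cells, and 0 of 46 cells allows a share of up to 6.52%.

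*Cdh5* (ENSMUSG00000031871, chromosome 8, 104101625 to 104144511, plus strand) was detected in 3.84% of kept cells, and endothelium held 98.1%, 96.7% and 99.0% of its 3665, 4489 and 3347 UMIs. EC2 had 17.7, 14.4 and 22.6 and was not apart from EC3, at 14.9, 14.2 and 17.8. EC4 had 12.6, 13.2 and 16.0, and Schlemm's canal 12.4, 11.1 and 10.7, apart from EC4. The *Angpt1*ΔNC value lay above both controls in the 3 blood endothelium labels and below both in Schlemm's canal. The lymphatic label LEC, with 3, 1 and 12 cells, had 3.17, 7.35 and 4.61. Outside endothelium the highest control mean was that of cluster 2, which came from 51 UMIs in 2 cells of control 2, beside 3 UMIs in control 1 and 0 in *Angpt1*ΔNC. Nearly every cell of EC2 held *Cdh5*, 100%, 100% and 97.3%, at median depths of 6148, 8732 and 9163 UMIs.

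*Cdh6* (ENSMUSG00000039385, chromosome 15, 13028701 to 13173675, minus strand), the gene of K-cadherin, with 604, 760 and 328 UMIs, was highest in mural cells. Cluster 21 had 0.552, 1.09 and 0.594, on 46, 78 and 22 UMIs, and was not apart from cluster 19, at 0.675, 0.630 and 0.641. Without control 2, cluster 19 came first. Cluster 20 followed, apart, at 0.430, 0.447 and 0.485. The genotypes lay close together in clusters 19 and 20. TM8 had 0.420, 0.363 and 0.353 and was not apart from TM6, glia and TM9, the last at 0.311, 0.379 and 0.116. In cluster 19, 31.0%, 28.9% and 31.5% of cells held *Cdh6*, at median depths of 5840, 6315 and 6306.5 UMIs. Both *Cdh6* and *Cdh11* were held by 15.2%, 14.6% and 16.7%, where the product of the single shares was 14.1%, 12.8% and 15.7%.

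*Cdh13* (ENSMUSG00000031841, chromosome 8, 118283733 to 119324921, plus strand), with 1083, 1223 and 746 UMIs, was spread over unlike cell types. The smooth muscle markers' main cluster, 19, led at 0.603, 0.652 and 0.643. Schlemm's canal was second at 0.542, 0.506 and 0.727, on 27, 35 and 18 UMIs, both labels apart from the next. Cluster 4 had 0.343, 0.392 and 0.324 and was not apart from cluster 9, at 0.347, 0.376 and 0.0838. Cluster 8 had 0.299, 0.319 and 0.0775. The ratio of *Angpt1*ΔNC to the control mean was 0.251 in cluster 8 and 0.232 in cluster 9, and between 0.769 and 1.39 in the other 4 of the first 6 labels. In Schlemm's canal 23.9%, 38.1% and 40.0% of cells held both *Cdh5* and *Cdh13*, the last being 6 of 15 cells. Nearly every cell there held *Cdh5* (97.8%, 98.4% and 100%), so these equal the shares of cells with *Cdh13*.

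*Cdh19* (ENSMUSG00000047216, chromosome 1, 110888326 to 110977584, minus strand), a cadherin of Schwann cells and other neural crest derivatives, had 926, 943 and 447 UMIs. Glia had 2.95, 2.82 and 1.81, cluster 9 had 0.647, 0.657 and 0.538, and cluster 8 had 0.588, 0.597 and 0.529, each apart from the next. All 3 *Angpt1*ΔNC values lay below both controls. The pigmented clusters held 81.6%, 78.4% and 85.7% of all *Cdh19* UMIs, and glia 17%, 19.7% and 10.3%. Among glia 63.0%, 58.8% and 47.1% of cells held *Cdh19*, at median depths of 3881.5, 4399 and 3714.5 UMIs. It was held together with *Cdh2* by 16.7%, 15.5% and 10.0%, where the product of the single shares was 13.2%, 13.1% and 7.41%.

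*Cdh4* (ENSMUSG00000000305, chromosome 2, 179442431 to 179899373, plus strand), the gene of R-cadherin, was barely detected, with 61, 61 and 48 UMIs in 0.600% of kept cells. Schlemm's canal came first at 0.0708, 0.0588 and 0, which rests on 4, 3 and 0 UMIs, and 0 of 15 cells allows a share of up to 20%. Cluster 1 followed at 0.0422, 0.0502 and 0.102, on 14, 13 and 4 UMIs. Leaving out control 1 put glia first and leaving out control 2 put EC2 first, so this order is set by single UMIs.

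**Figure D2:**
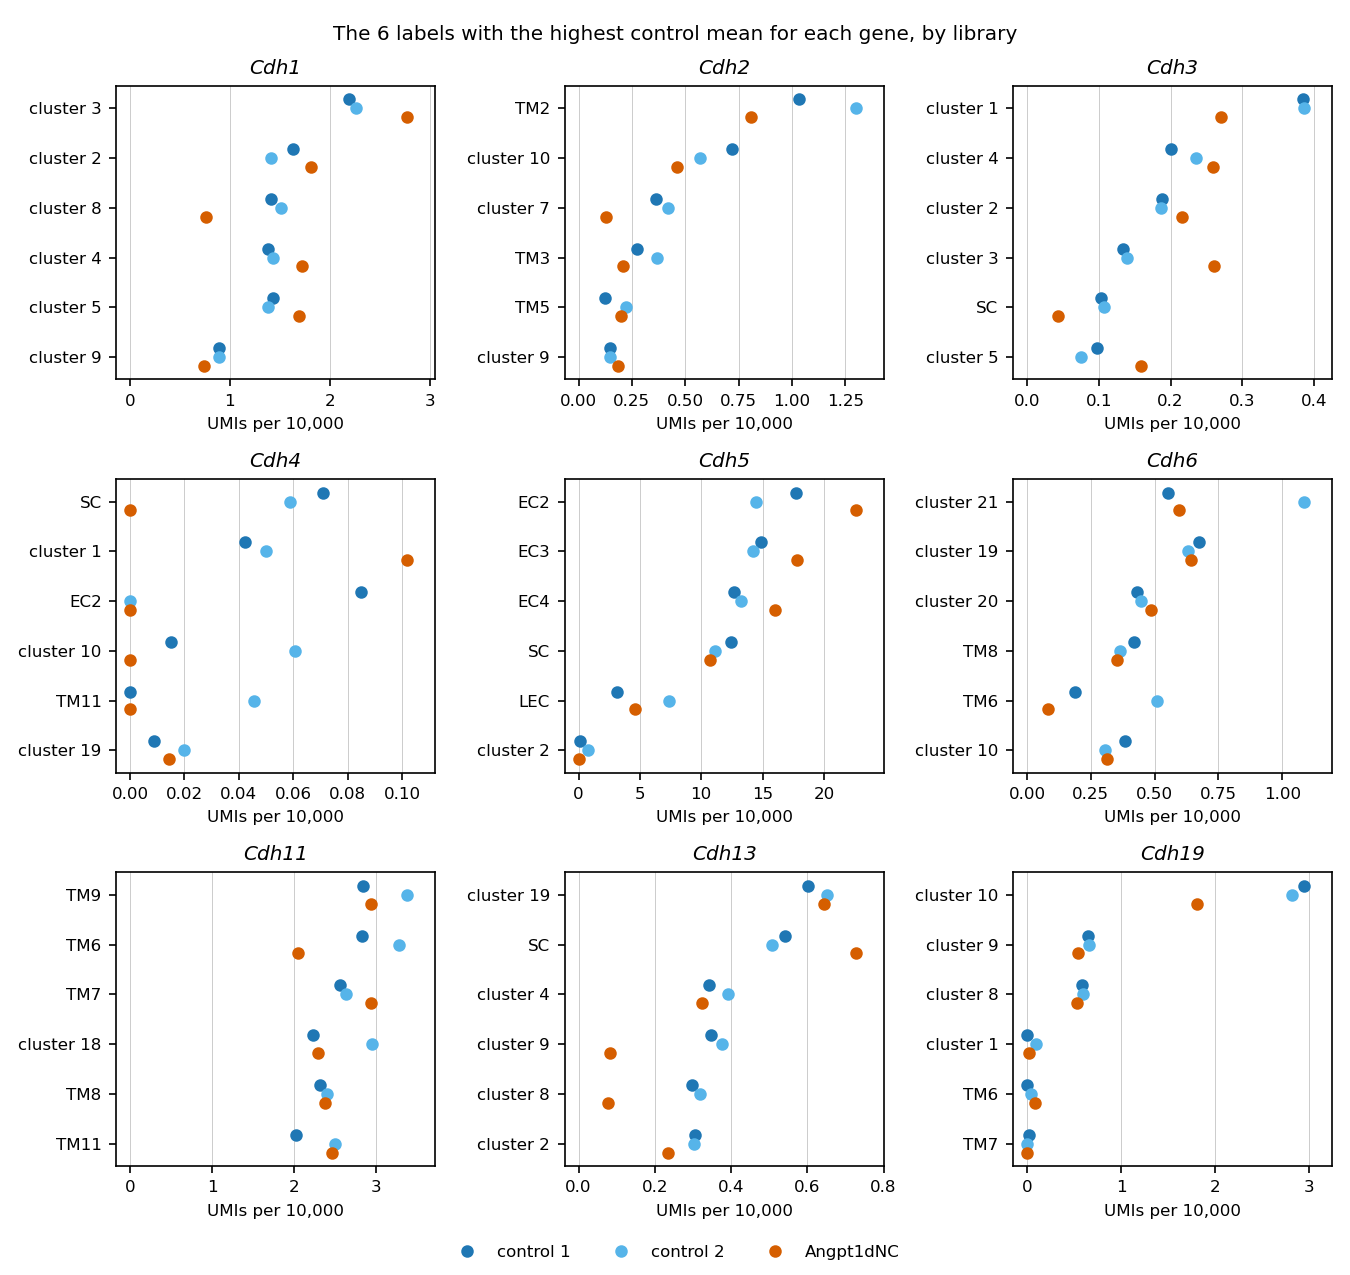
Level (UMIs per 10,000, linear axes that differ between panels) of each cadherin gene in its 6 labels with the highest control mean, 1 point per library; Angpt1dNC stands for *Angpt1*ΔNC. *Cdh1* in cluster 8 and *Cdh13* in clusters 8 and 9 have the *Angpt1*ΔNC point far left of 2 control points that lie close together.

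For the genotypes, UMIs were summed by library in 9 classes of labels and compared over libraries, 2 against 1, by edgeR's quasi-likelihood F-test with Benjamini-Hochberg adjustment over all genes tested. A gene was called at an adjusted p under 0.05, and the level of a class is the gene's summed UMIs per 10,000 summed UMIs of the class. Folds and log2 changes are those of the edgeR fit, which rescales the libraries by TMM factors, so they can differ from the ratio of the printed levels. Each SE was derived from the log2 change and the F statistic of its test. It is therefore not independent of the p beside it.

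The pigmented clusters 8 and 9 showed the clearest difference: *Cdh1* and *Cdh13* fell in *Angpt1*ΔNC. *Cdh13* had 384, 404 and 58 UMIs, a level of 0.305, 0.338 and 0.0782, and was 3.95-fold lower than in the controls. *Cdh1* stood at 1.26, 1.30 and 0.720, 1.71-fold lower. *Cdh19*, in the same cells, had 0.600, 0.618 and 0.517, and *Cdh2* 0.130, 0.162 and 0.161. The controls lay close together for the 2 called genes, and the *Angpt1*ΔNC library was below both. The log2 change of *Cdh13* was -1.98 (SE 0.20, adjusted p = 6.47e-10) and that of *Cdh1* -0.77 (SE 0.14, adjusted p = 6.65e-05). Of 7 members tested 2 were called, both lower, where 16.5% of all 12144 genes tested were called. The members' median log2 change was -0.77 beside -0.01 for all genes. This median is the value of *Cdh1* itself, and of the members below it *Cdh6* had 11, 23 and 4 UMIs and *Cdh11* 23, 24 and 5. Among cells typed as male, which held UMIs from the Y chromosome but no *Xist*, *Cdh13* had a log2 change of -1.20 (adjusted p = 0.0213, the highest of a range from 1.53e-19 over the alternatives).

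The fall of *Cdh13* was present in each pigmented cluster. Cells with *Cdh13* made up 23.6%, 24.5% and 8.37% of cluster 8 and 16.2%, 17.9% and 5.82% of cluster 9, with the *Angpt1*ΔNC interval below both control intervals in each. These intervals, too, cover counting error and not the spread between mice. With every cell thinned to 2000 UMIs the share in cluster 8 was 5.67%, 6.08% and 1.53%, with no cell left out. In cluster 9 it was 6.74%, 7.12% and 1.77%, over the 669 of 711, 775 of 799 and 276 of 292 cells that were deep enough. Cells with both *Cdh1* and *Cdh13* made up 17.8%, 19.3% and 4.52% of cluster 8, where the product of the single shares was 17.2%, 17.6% and 4.81%. Cells with both *Cdh1* and *Cdh19* made up 32.2%, 30.8% and 28.5% there, beside a product of 30.8%, 29.6% and 25.7%. The difference in *Cdh1* was larger in cluster 8, where the ratio of *Angpt1*ΔNC to the control mean was 0.522, than in cluster 9, where it was 0.834, and this contrast was not tested. Cluster 8 gave 54.1%, 49.0% and 60.2% of the pigmented cells. The 5 surface epithelium markers, led by *Krt14*, summed to 0.665, 0.513 and 0.608 in the pigmented cells, with *Angpt1*ΔNC between the controls. The 4 melanocyte markers had their highest sum in *Angpt1*ΔNC, and their part in the result was not tested.

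**Figure D3:**
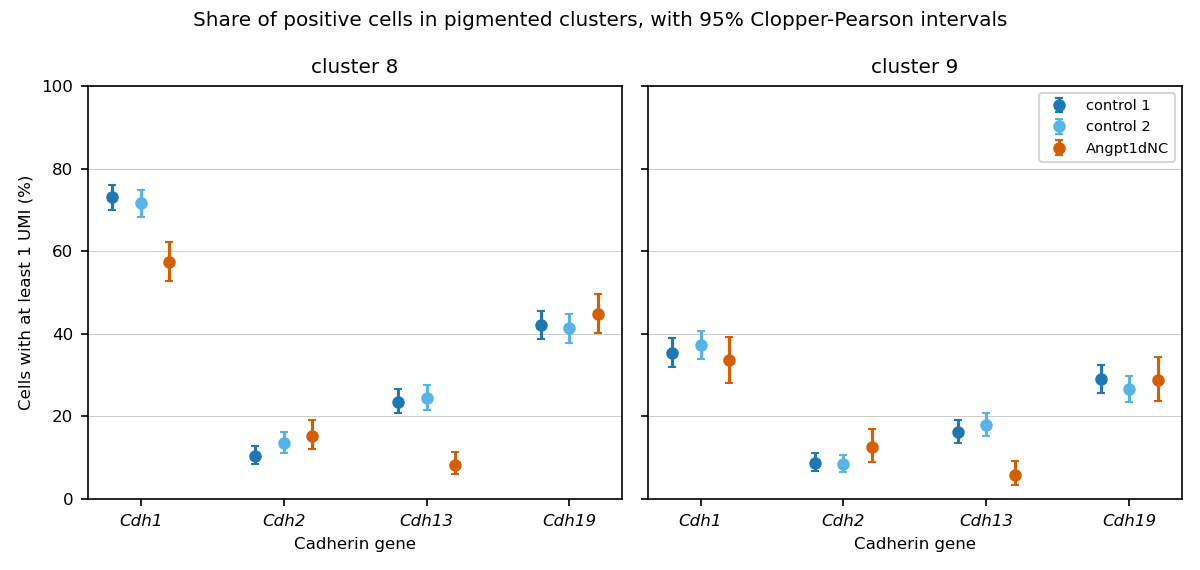
Share of cells (%) with at least 1 UMI of *Cdh1*, *Cdh2*, *Cdh13* and *Cdh19* in the pigmented clusters 8 and 9, 1 point per library with its 95% Clopper-Pearson interval; Angpt1dNC stands for *Angpt1*ΔNC. *Cdh13* falls from 23.6% and 24.5% to 8.37% in cluster 8, while the *Cdh19* intervals of the 3 libraries overlap in both clusters.

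In blood endothelium *Cdh5* rose in *Angpt1*ΔNC. Its level was 14.7, 14.9 and 19.8, so that *Angpt1*ΔNC lay above 2 nearly equal controls. The fold fitted by edgeR was 1.52, larger than the ratio of these levels. The log2 change was 0.60 (SE 0.14, adjusted p = 0.0168). *Cdh13* had only 7, 14 and 20 UMIs and did not pass (log2 change 1.60, adjusted p = 0.0808), although 3 alternatives called it, over a range of 0.0143 to 0.413. Of 4 members tested 1 was called, where 9.56% of all genes were. The members' median log2 change was 0.26 beside -0.03 for all genes, with no more than 27 UMIs in any library for the members other than *Cdh5*. EC3 gave 48.0%, 44.9% and 31.9% of the cells, and with equal weight for each label the log2 change of *Cdh5* was again 0.60 (adjusted p = 0.00330). The sum of the 4 endothelium markers includes *Cdh5* itself. By mean level per cell, the other markers were mixed: *Egfl7* had 21.7, 20.2 and 24.7, *Pecam1* 8.53, 8.38 and 8.63 and *Tie1* 2.45, 2.63 and 2.23, and their part in the result was not tested. Schlemm's canal, with 15 *Angpt1*ΔNC cells, was not tested for genotype.

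In TM1 to TM11 *Cdh13* rose and *Cdh5* fell, both at low counts. These labels are called TM stroma here, although TM2 is the corneal endothelium of the study. *Cdh13* had 84, 111 and 144 UMIs, a level of 0.0460, 0.0486 and 0.0924, which is 1.95-fold higher (log2 change 0.97, SE 0.22, adjusted p = 0.0297). By mean level per cell, the *Angpt1*ΔNC value was above both controls in TM4, at 0.0583, 0.0685 and 0.156, and in TM5, at 0.149, 0.149 and 0.327. It was below both in TM10, at 0.201, 0.237 and 0.120. The rise was therefore not shared by every stroma label. *Cdh5* had 43, 56 and 10 UMIs (log2 change -1.89, SE 0.46, adjusted p = 0.0388). They lay in 1.5%, 1.44% and 0.514% of cells, at median depths of 5913, 6377 and 7494 UMIs, beside leukocyte shares of 0.303%, 1.37% and 1.06%. TM7 held most of these UMIs in the controls, with 31, 42 and 4 UMIs in 4.5%, 4.6% and 2.3% of its cells. Its control intervals, 3.05% to 6.36% and 3.21% to 6.37%, lie above those of the leukocytes in the same libraries, 0.0367% to 1.09% and 0.712% to 2.39%. TM7 was picked for holding these UMIs, so this is a description without a test, and its *Angpt1*ΔNC share rests on 4 UMIs. The 4 endothelium markers, *Cdh5* among them, summed to 0.128, 0.112 and 0.0880 in TM7, led by *Cdh5* in each library. Over all of TM stroma they summed to 0.108, 0.0911 and 0.0479, led by *Tie1* in the controls and by *Egfl7* in *Angpt1*ΔNC. Each marker had UMIs in all libraries in both, and their part in the result was not tested.

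*Cdh11*, present throughout this stroma, had 1.77, 1.82 and 1.75 (log2 change -0.03, adjusted p = 0.916). *Cdh2* had 0.192, 0.312 and 0.215, within the range of the controls; among male-typed cells it was called lower (log2 change -0.96, adjusted p = 0.0187, range over the alternatives 0.0187 to 0.976). *Cdh6* had 0.110, 0.108 and 0.0661 and missed the threshold (log2 change -0.71, adjusted p = 0.0571, range over the alternatives 0.00211 to 0.516). It was called lower in 3 of 6 alternatives: no filter on low counts, equal weight for each label and male-typed cells. Of 9 members tested 2 were called, 1 in each direction, where 8.97% of all genes were. The members' median log2 change was 0.57 beside -0.01 for all genes, but this median is the value of *Cdh1*, on 8, 19 and 15 UMIs. *Cdh1*, *Cdh3*, *Cdh4* and *Cdh19*, all with positive log2 changes, had no more than 23 UMIs in any library. The makeup of the stroma differed as well: TM7 gave 23.8%, 22.2% and 8.94% of the cells and TM5 1.93%, 3.13% and 6.47%. TM2, which held 41.9% of all *Cdh2* UMIs, gave 11.6%, 15.2% and 16.7%. Within TM2 and TM3 the *Angpt1*ΔNC level of *Cdh2* lay below both controls, and within TM4 and TM5 between them. With equal weight for each label neither call held (*Cdh13* log2 change 0.27, adjusted p = 0.554, range over the alternatives 0.000907 to 0.554; *Cdh5* -1.17, adjusted p = 0.392, range 0.00136 to 0.392), while *Cdh6* was called. *Cdh5* was not called among male-typed cells either (log2 change -1.25, adjusted p = 0.223). DESeq2 called 0 of the 9, although its log2 changes were like those of edgeR, 0.97 for *Cdh13* (adjusted p = 0.356) and -1.90 for *Cdh5* (adjusted p = 0.347).

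In mural cells *Cdh13* fell, with 156, 220 and 21 UMIs and a level of 0.298, 0.347 and 0.125. The fitted fall was 2.25-fold, smaller than the ratio of these levels (log2 change -1.17, SE 0.29, adjusted p = 0.00965). Within cluster 19, where most of these UMIs lay in the controls, the level was 0.603, 0.652 and 0.643, with *Angpt1*ΔNC between the controls. Cluster 19 gave 37.4%, 42.1% and 15.7% of mural cells, and the smooth muscle marker sum had its lowest value in *Angpt1*ΔNC. With equal weight for each label the log2 change was -0.27 (adjusted p = 0.612, range over the alternatives 0.00103 to 0.612), and the call was lost. DESeq2 did not call it either, on a log2 change like that of edgeR (-1.18, adjusted p = 0.236). The 110 male-typed mural cells of *Angpt1*ΔNC held 0 *Cdh13* UMIs, so the fitted log2 change among male-typed cells, -9.48, is no measure of a fold. *Cdh6*, which is spread over all 3 mural clusters, had 0.547, 0.600 and 0.579, and *Cdh11* 0.683, 0.704 and 0.561. Of 5 members tested 1 was called, where 16.4% of all genes were. The members' median log2 change was 0.21 beside -0.05 for all genes.

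In surface epithelium *Cdh1* had 1.48, 1.54 and 1.98 (log2 change 0.48, adjusted p = 0.175) and *Cdh3* 0.124, 0.139 and 0.221 (log2 change 0.83, adjusted p = 0.117). Both *Angpt1*ΔNC values lay above both controls, and for both genes this was so in each of clusters 2, 3, 4 and 5. edgeR called 0 of the 6 members tested, where 0.139% of all 12982 genes were called. At an unadjusted p under 0.05 there were 3 of the 6, beside 2631 of the 12982 genes, and DESeq2 called 0 of them. The third was *Cdh4*, which lay lower, on 23, 18 and 5 UMIs (log2 change -2.07, adjusted p = 0.188). *Cdh13* had 0.171, 0.187 and 0.188. With no filter on low counts edgeR called *Cdh3* higher and also called *Cdh5*, on 8, 56 and 11 UMIs, beside 2005 of 18972 genes. The level of *Cdh5* there was 0.00338, 0.0268 and 0.00445, with *Angpt1*ΔNC between the controls. Most of its UMIs in control 2 lay in 2 cells of cluster 2, as given above. Cluster 5 gave 50.3%, 43.8% and 23% of the surface epithelium cells and cluster 3 gave 8.57%, 8.67% and 16.4%. With equal weight for each label the log2 change was 0.46 for *Cdh1* (adjusted p = 0.252) and 0.59 for *Cdh3* (adjusted p = 0.295).

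In ciliary epithelium *Cdh2* had 74, 31 and 20 UMIs, a level of 0.292, 0.437 and 0.122 (log2 change -1.49, adjusted p = 0.159), and *Cdh6* had 0.174, 0.212 and 0.361 (log2 change 0.96). The 2 genes thus lay on opposite sides of the controls. edgeR called 0 of 3 members tested, where 0.788% of all genes were called. An unadjusted p under 0.05 was found for 2 of the 3, beside 1297 of 9766 genes, and DESeq2 called 0. With no filter on low counts edgeR called *Cdh2* lower, beside 626 of 16342 genes. In glia *Cdh19* had 2.92, 2.81 and 1.84 (log2 change -0.59, adjusted p = 0.449), and edgeR called 0 of 4 members, where 0.916% of all genes were called. There 1 of the 4 had an unadjusted p under 0.05, beside 683 of 6658 genes, and DESeq2 called 0.

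Clusters 17 and 18 are stroma by their markers, as 4 fibroblast markers led by *Dcn* summed to 74.4, 77.4 and 78.9 in cluster 17 and 213, 166 and 189 in cluster 18. In cluster 17 *Cdh2* had 37, 90 and 20 UMIs, a level of 0.166, 0.191 and 0.0431 (log2 change -1.89, adjusted p = 0.0927), and *Cdh11* had 1.33, 1.35 and 1.64. edgeR called 0 of 4 members, where 0.288% of all genes were called. An unadjusted p under 0.05 was found for 2 of the 4, beside 2338 of 11444 genes, and DESeq2 called 0. *Cdh2* was called lower in cells with at least 2000 UMIs, beside 502 of 11424 genes, and in male-typed cells, beside 443 of 9288. In cluster 18 *Cdh11* had 2.22, 2.82 and 2.41, inside the controls. There edgeR called 0 of 2 members, where 3.22% of all genes were called, 0 had an unadjusted p under 0.05, beside 1246 of 8724 genes, and DESeq2 called 0.

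The partners of cadherins were read from a list of 48 other genes, most of them of adherens junctions and desmosomes: further cadherins, catenins, nectins and their regulators. The list also held *Adipoq*, which is not a junction gene and was tested, without a call, in pigmented cells alone. *Nectin3*, which encodes an immunoglobulin-like adhesion protein of the adherens junction, fell in 5 classes. In TM stroma it stood at 0.998, 0.947 and 0.434 (log2 change -1.16, adjusted p = 0.00292), and in mural cells at 0.857, 0.834 and 0.376 (-0.97, 0.00234). In pigmented cells it had 0.167, 0.145 and 0.0755 (-0.98, 0.00138), and in blood endothelium 0.411, 0.353 and 0.155 (-1.11, 0.0361). In cluster 18 it had 1.23, 1.08 and 0.561 (-0.97, 0.0436), a call that held in 1 of 5 alternatives. The call held in 6 of 6 in TM stroma, 5 of 6 in mural and in pigmented cells and 4 of 6 in blood endothelium. Of these 5 classes DESeq2 called it in TM stroma alone, with adjusted p of 0.0654 in mural cells, 0.254 in pigmented cells, 0.487 in blood endothelium and 1.00 in cluster 18. These classes share their 3 libraries, so the calls are not independent of one another.

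Of the list, TM stroma had 34 genes tested, 1 higher and 3 lower, where 8.97% of all genes were called and DESeq2 called 2 of the 34, with a median log2 change of -0.01, the same as all genes. *Ctnnal1*, a gene related to α-catenin, fell by 0.63 on the log2 scale (adjusted p = 0.0351), *Nectin4* fell by 2.31 (0.00872) and *Dsp*, the gene of desmoplakin, rose by 1.07 (0.0291). Mural cells had 23 tested, 1 higher and 3 lower, where 16.4% of all genes were called and DESeq2 called 2 of the 23, with a median of -0.20 beside -0.05. There *Ctnnal1* had 2.49, 2.47 and 0.794 and fell by 1.45 (1.50e-05), *Nectin2* fell by 0.67 (0.0432), and *Zeb2*, a repressor of *Cdh1* in other tissues, had 1.75, 2.00 and 3.08 and rose by 0.91 (0.000344).

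Pigmented cells had 24 genes of the list tested, 2 higher and 3 lower, where 16.5% of all genes were called, and DESeq2 called 0 of the 24. The median was 0.00 beside -0.01. *Nectin2* rose by 0.69 (0.00157) and *Ctnnd1*, the gene of p120-catenin, by 0.43 (0.0307). *Pkp3*, the gene of a desmosomal plakophilin, fell by 0.95 (0.000983). *Snai1*, another repressor of *Cdh1*, was called lower on levels of 0.0206, 0.0176 and 0.0027, which are too few UMIs in *Angpt1*ΔNC for a fold. *Ctnnb1*, the gene of the cadherin partner β-catenin, was not called and had 8.94, 9.07 and 8.75 (log2 change 0.01, adjusted p = 0.960). Blood endothelium had 14 tested with 1 lower and a median of 0.18 beside -0.03, and cluster 18 had 15 with 1 lower and -0.03 beside -0.02. DESeq2 called 0 of the list in both, and the shares called over all genes were 9.56% and 3.22%. In surface epithelium edgeR called 0 of 29, with 12 at an unadjusted p under 0.05 and 3 called by DESeq2 (*Nectin1*, *Dsc3* and *Snai2*, named after their values were seen), beside 2631 of 12982 and 477 of 11615 over all genes. In cluster 17 it called 0 of 25, with 9 at an unadjusted p under 0.05 and 1, *Nectin3*, by DESeq2, beside 2338 of 11444 and 175 of 7790 over all genes. Ciliary epithelium had 0 of 18, with 3 at an unadjusted p under 0.05, and glia 0 of 10, with 0, beside 1297 of 9766 and 683 of 6658 over all genes. DESeq2 called 0 in both. *Nectin4* in TM stroma and *Ctnnal1* in mural cells held in 6 of 6 alternatives, and the other called genes besides *Nectin3* in 3 to 5 of 6.

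Genes with the most similar pattern were sought by Pearson's r over 34 labels of at least 50 cells, on log2 control means, among 7322 genes that reached 0.5 UMIs per 10,000 in some label. The labels share libraries and depth, and no p is attached. For *Cdh5* they were *Robo4*, *Adgrl4* and *Mmrn2*, each at r = 0.990. For *Cdh19* they included *Cmtm5* (0.978) and *Sox10* (0.966), and for *Cdh11* they were *Twist1* (0.944), *Colec12* (0.944) and *C1s1* (0.942). *Cdh1* was closest to *Fxyd3* (0.928), *Gjb2* (0.904) and *Tfap2a* (0.892). *Cdh6* was closest to *Des* (0.908), *Bdnf* (0.885) and *Rem1* (0.857), and *Cdh3* to *Krt8* (0.894), *Wwc1* (0.826) and *Dapl1* (0.817). The remaining genes had weaker matches. *Cdh2* came with *Hs2st1* (0.723), *Prnp* (0.718) and *Map3k4* (0.688), *Cdh13* with *Cav1* (0.693), *Npnt* (0.675) and *Smyd2* (0.658), and *Cdh4* with *8430408G22Rik* (0.639), *F8* (0.634) and *Slco1a4* (0.620). *Cdh3* and *Cdh4* did not reach 0.5 UMIs per 10,000 themselves, with highest control means of 0.385 and 0.0648. As the order of *Cdh4* is set by single UMIs, its matches say little. By Spearman correlation 3 of the 27 genes found by Pearson's r remained, *Prnp*, *Adgrl4* and *Des*, so the names depend on the measure. Among the 9 members the highest r was 0.537, between *Cdh1* and *Cdh3*, and the lowest -0.489, between *Cdh1* and *Cdh11*.

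*Angpt1*ΔNC was placed against the 2 controls in labels with at least 20 UMIs of a gene and more than 3 in each library. Labels with next to no UMIs in a library were thus left out. *Cdh3* in cluster 7 was one, with 15, 4 and 2 UMIs and *Angpt1*ΔNC below both controls. Among the labels kept, the position of *Angpt1*ΔNC was mixed for most members. It was above both, between or below both in 8, 7 and 4 of 19 labels for *Cdh11* and in 4, 4 and 4 of 12 for *Cdh6*. *Cdh13* had 6, 4 and 5 of 15 labels and *Cdh2* 2, 4 and 6 of 12. *Cdh1* had 4, 1 and 2 of 7, the 4 being the surface epithelium clusters and the 2 the pigmented ones. *Cdh3* had 4, 0 and 2 of 6, *Cdh5* 3, 1 and 2 of 6, and *Cdh19* 0, 0 and 3 of 3.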

How the data were processed

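The deposited matrices hold raw UMI counts per gene and called cell, made by the authors with Cell Ranger (2.1.1 in the submitters' notes, 3.0.2 in the matrix headers) on mm10; cell labels come from the authors' Seurat 3.1.3 clustering. The members and gene lists were chosen with earlier results of these data known. Levels and shares were computed in Python 3.11.15 (numpy 2.4.6, pandas 2.3.3, scipy 1.17.1), figures with matplotlib 3.10.9. UMIs summed by class and library were fitted across all genes in R 4.3.3 with edgeR 4.0.16 (TMM, filterByExpr, quasi-likelihood F-test, Benjamini-Hochberg), leaving 1 residual degree of freedom, so the lone *Angpt1*ΔNC library is assumed to vary like the controls. Named genes are the 9 members, the 3 most similar genes of each (2 given for *Cdh19*), and every called gene of the adherens junction list; *Ctnnb1*, *Nectin1*, *Dsc3* and *Snai2* were added after their values were seen. Alternatives were DESeq2 1.42.0 size factors, the DESeq2 test, no filter on low counts, equal weight for each label, cells with at least 2000 UMIs, male-typed cells, and leaving out each control. Coordinates are from GENCODE's GRCm38 annotation.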

Additional observations from a re-analysis of the deposited data

Results flagged for a closer look

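Summed over blood endothelium *Cdh5* rose in *Angpt1*ΔNC, and summed over TM stroma it fell, and *Angpt1*ΔNC lay beyond both controls in each. The log2 change in blood endothelium exceeded that in TM stroma by 2.49, a difference that was not tested. The TM stroma call rests on 43, 56 and 10 UMIs and was lost with equal weight for each label (log2 change -1.17), among male-typed cells (-1.25) and by DESeq2, whose log2 change of -1.90 was like the -1.89 of edgeR.

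Summed over its class *Cdh13* rose in TM stroma and fell in the pigmented and mural cells, again with *Angpt1*ΔNC beyond both controls. Its log2 change in TM stroma exceeded that in pigmented cells by 2.95 and that in mural cells by 2.14, and neither difference was tested. The TM stroma and mural calls were lost with equal weight for each label, which gave log2 changes of 0.27 and -0.27. They were lost by DESeq2 too, but with log2 changes of 0.97 and -1.18, like the 0.97 and -1.17 of edgeR. Within cluster 19, the mural label that holds most of its UMIs in the controls, *Cdh13* had 0.603, 0.652 and 0.643.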

How the results depend on the processing

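The calls of *Cdh1* and *Cdh13* in pigmented cells and of *Cdh5* in blood endothelium kept direction and threshold in all 6 refits; log2 changes over these and leaving out either control ran from -0.97 to -0.70, -2.06 to -1.20 and 0.53 to 0.63. Counts of called members that moved by more than 1.5 times were as follows, and the cause was not tested. With no filter on low counts there were 2 in blood endothelium, 2 in surface epithelium and 1 in ciliary epithelium. DESeq2 size factors gave 2 in blood endothelium, and so did cells with at least 2000 UMIs, which also gave 1 in cluster 17. Male-typed cells gave 1 in cluster 17. Equal weight for each label gave 1 in TM stroma and 0 in mural cells, and the DESeq2 test 0 in both. In TM stroma no filter and male-typed cells each gave 3 beside 2, within 1.5 times. The label with the highest share of positive cells was kept for 4 of 9 genes after thinning to 2000 UMIs and for 4 after thinning to 1000. By Spearman correlation 3 of the 27 similar genes remained. The other 44 values of this kind stayed within 1.5 times. Of values for single genes, 74 kept the call and direction or, without a test, stayed within their error, 30 moved beyond it and 7 lost their call. A kept call does not mean a like fold, as *Cdh13* in mural cells went from -1.17 to -9.48 on 0 UMIs among male-typed cells. No called value changed sign in these alternatives.

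Over all genes the calls in surface epithelium went from 18 to 2005 without the filter and to 477 by DESeq2, and in cluster 17 from 33 to 502 with deep cells, so counts of 0 there depend on these settings. In the main fits the prior degrees of freedom that edgeR estimated ran from 3.71 in surface epithelium to 39.0 in pigmented cells. Over the refits they ran from 3.22, in cluster 17 with DESeq2 size factors, to infinite, as in pigmented cells with at least 2000 UMIs. No paired analysis was possible, as there was only 1 *Angpt1*ΔNC library. The replicate numbers only count libraries within a group and do not link its pool to a control pool. Schlemm's canal and *Cdh4* are limited by few cells and UMIs.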
